A study of Mus musculus with 1086 samples.

Results

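The livers of A/J mice (labelled AJ) were compared with those of the 7 other inbred strains that founded the Diversity Outbred stock. The AJ animals were taken by their strain label, and they are 16 of the 128 founder males, 8 on each diet. The other strains were 129S1, B6, NOD and NZO, which with AJ are classical laboratory strains, and CAST, PWK and WSB, which were derived from wild mice. Liver RNA was measured by single-end sequencing, and every animal was a male of 26 weeks except NZO, whose males were taken at 20 weeks on both diets.

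Each of the 16 strain by diet groups held 8 males, so the replicates were separate animals, and the labels name no transgene or drug in any group. The labels call the diets chow and high fat. Their protocol gives the founders a control diet with 17% of its energy as fat and a high fat, high sucrose diet with 45% of energy as fat and 34% sucrose by weight, and in the same passage describes diets of 6% and 22% fat by weight, so the composition of the founders' control diet cannot be told from it. Founder libraries were aligned to a genome of their own strain. A difference in a strain's gene model or in how uniquely its reads map cannot be told apart from a difference in RNA level. The tissue was whole liver, where fewer cells of a type and less RNA per cell cannot be told apart either.

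The libraries held 5866050 to 14046900 estimated reads, and those of AJ 6607900 to 9994280. Across the 500 genes with the most variance between strains, all but 2 of 128 libraries were nearest to the mean of their own label, among them all 16 of AJ (r = 0.954 to 0.980). The library labelled B6 8438 was nearest to NOD (r = 0.936, against 0.700 with B6) and the library labelled NOD 8264 was nearest to B6 (r = 0.941, against 0.737 with NOD). Both were left out, and with both kept under their labels the counts given below became 3237 higher and 3051 lower genes against the 7 strains, and 54 and 80 genes outside every other strain. In the AJ livers the female-specific transcript Xist was at 0 to 8.06, while the Y-linked Ddx3y was at 505 to 1036, as in males. All 10 hepatocyte markers were well above the floor, and of 14 T, B and NK cell markers 13 had a median under 3 in AJ. Among the AJ animals, chow replicate 7579 and high fat replicate 7103 most often stood apart from their group, and results that rest on them are given without them.

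A/J is an old albino laboratory strain with several alleles of known effect in the liver and blood, among them loss of complement C5 and of dysferlin. The liver is also a sex-dimorphic organ: the pulsed growth hormone of males and the steadier growth hormone of females, read through STAT5B, set the levels of many cytochromes P450, sulfotransferases and major urinary proteins. Male-biased and female-biased genes are those with the higher level in that sex, and all animals here were males.

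Levels are given as normalised read counts, the authors' values for each library put on a scale close to reads per gene and called count equivalents on the plots. They are not divided by gene length, so levels of different genes are not compared. Differences are AJ minus the mean of the 7 other strain means, over both diets, on the log2(level + 1) scale, given ± the standard error from limma, with Benjamini-Hochberg adjusted p over all 13644 genes tested. This scale understates differences in genes near 0. Of these genes, 6370 passed the threshold of 0.05, which is 46.7% of those tested. AJ was higher in 3281 (24.0%) and lower in 3089 (22.6%), with a median absolute difference of 0.40 among them and a median over all genes of 0.01. In 945 genes the difference was over 2-fold, with 379 higher and 566 lower in AJ. Where a gene is said below to be higher or lower in AJ without another reference, it passed this test.

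A mean of 7 strains can be moved by 1 or 2 of them, so AJ was also set against each strain. AJ lay above every other strain at the threshold in 54 genes (0.396% of those tested) and below every other strain in 80 (0.586%). The distance to the nearest strain had a median of 0.52 on the log2 scale in the first group and of -0.66 in the second, and it was over 2-fold in 16 and 22 genes. Fitted on chow alone 41 of these genes passed against every strain, and on high fat alone 53, with fewer animals in each of these fits. Each of the 8 sequencing lanes held 1 animal of every group. In 7 of the genes outside every strain, all 16 AJ animals lay beyond all 110 others. Against single strains, AJ differed in 4393 genes from 129S1 (32.2%), in 4654 from NZO (34.1%), in 4759 from B6 (34.9%), in 5328 from NOD (39.1%), in 6408 from WSB (47.0%), in 7694 from PWK (56.4%) and in 8274 from CAST (60.6%). The 4 classical strains were thus fewer genes away than the 3 wild-derived ones. The spread between AJ animals of a group, a median SD of 0.33 on the log2 scale, fell between that of NOD (0.28) and that of CAST (0.37).

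Most genes listed for a known allele differed in AJ, and the part of the alleles in these values was not tested. Of 8 genes listed for a known allele, 2 were higher and 5 lower in AJ, and 4 are described first. Nnt, among the higher ones, is listed for a variant of another strain, named below, and not of A/J. Hc encodes complement C5, which A/J and NOD mice lack through a small deletion in the coding sequence. Its level was 2022, 2658 and 3324 (lowest, median and highest) in chow-fed AJ males and 1561, 2662 and 3229 on high fat. NOD ranged from 1971 to 3829 around a median of 2501, and no animal of the remaining strains was below 5245. AJ and NOD overlapped in large part and lay below all others, so that Hc was lower in AJ by -1.66 ± 0.07 (adjusted p = 8.12e-44) but differed from NOD by only -0.05 ± 0.09.

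Dysf encodes dysferlin, a membrane repair protein of muscle that A/J lack through a retrotransposon insertion. Its level was 2.33, 5.17 and 8.70 in AJ on chow and 0.963, 7.10 and 11.2 on high fat. The next strain was NZO, with 4.26, 18.6 and 45.2, and every library of the other 6 strains was at 20.7 or more. Only NZO overlapped AJ. The difference was -2.67 ± 0.14 (adjusted p = 3.82e-36), and Dysf also lay below NZO by -1.62 ± 0.18 (adjusted p for all 7 strains = 4.16e-12).

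Glo1 encodes glyoxalase 1, which removes methylglyoxal and which lies in a segment that is duplicated in A/J. AJ males had 4770, 6213 and 6455 on chow and 5230, 6103 and 6758 on high fat, against 1251, 2596 and 5279 in all other animals. The highest of those were 129S1, with a median of 4270, and 13 of 16 AJ animals lay above all 110 others. Glo1 was higher in AJ by 1.17 ± 0.06 (adjusted p = 5.88e-37) and exceeded 129S1 by 0.51 ± 0.08 (adjusted p for all 7 strains = 6.26e-07). Its neighbour Btbd9, picked out after its values were seen, was higher by 0.81 ± 0.05 and likewise above every strain (adjusted p = 7.01e-05). AJ animals had 217 to 273 of Btbd9 and other animals 91.2 to 226, with 14 of 16 AJ above all of them. The genes tested beyond the pair, Zfand3 and Dnah8, gave 0.05 ± 0.04 and 0.73 ± 0.20 and were not above every strain.

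Nnt, the mitochondrial transhydrogenase, is partly deleted in C57BL/6J mice. AJ had 898, 1050 and 1341 on chow and 1066, 1204 and 1628 on high fat, and B6 had 262, 395 and 555, without overlap. AJ was above each strain, with NZO nearest at a difference of 0.29 ± 0.07 (adjusted p for all 7 strains = 0.00819). Of the other listed genes, the receptor Ahr (-0.55 ± 0.15), the acetyltransferase Nat2 (-0.21 ± 0.08, adjusted p = 0.0151) and the antiviral Mx1 (-0.61 ± 0.24, adjusted p = 0.0259) were lower than the mean of the others but not below every strain. Mx1 was highest in NZO, with a median of 120, and PWK, with 62.2, against 7.97 in AJ, and without NZO its difference was -0.16 (adjusted p = 0.629). Naip5, the flagellin sensor whose A/J allele permits Legionella growth, did not pass (0.11 ± 0.17, adjusted p = 0.64). Of its 100-base transcript windows, 16.2% also occur in other genes of the annotation, most of all in Naip3, so its level is uncertain.

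**Figure D1:**
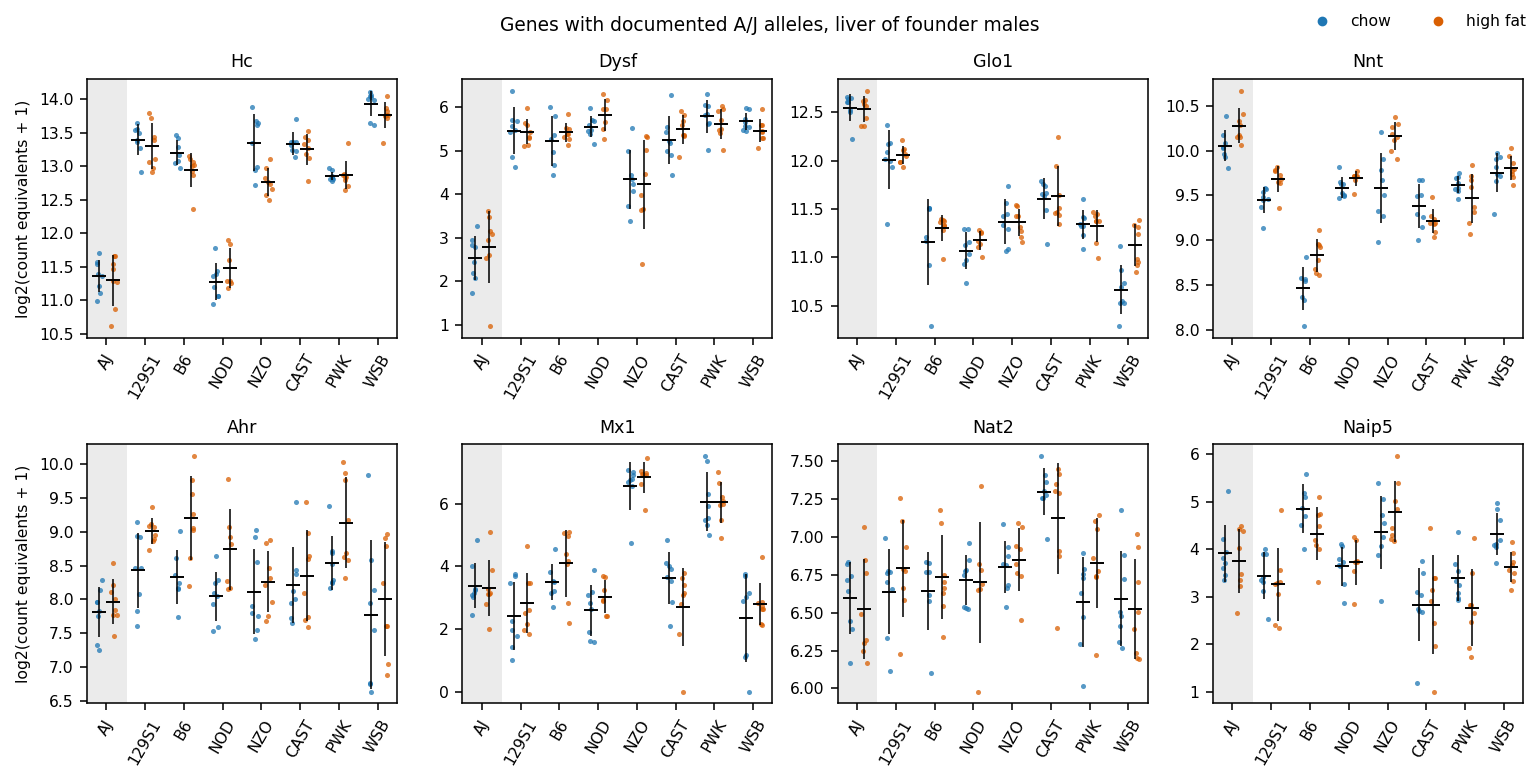
The 8 genes listed for a known allele, as log2(count equivalents + 1) on the y axis by strain on the x axis. The known variant of Nnt belongs to another strain and not to A/J. Points are animals, coloured by diet, and the bars give each group's mean and SD. AJ and NOD share the low Hc, and AJ has the lowest mean for Dysf and the highest for Glo1 and Nnt.

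Genes besides Dysf, Glo1 and Nnt also set AJ apart from every strain. Iah1, an esterase, was lower in all 16 AJ animals than in all 110 others. Its level was 116.6, 125.7 and 150.99 on chow and 123.05, 128.5 and 185 on high fat, against 257, 409 and 772 elsewhere. The difference was -1.61 ± 0.06, and WSB was nearest at -1.45 ± 0.07 (adjusted p = 1.55e-34). Iah1 closed a run of 3 neighbouring genes on chromosome 12 that were all below every strain, with the integrin adaptor Itgb1bp1 at -0.79 ± 0.06 and the mRNA 3′ end nuclease Cpsf3 at -0.31 ± 0.04 (adjusted p = 0.0137 for all 7 strains). The latter pair is transcribed divergently, from start sites 13 bases apart in RefSeq's annotation of GRCm38.p6. The genes on either side of the run were not below every strain: Adam17, the sheddase, was at -0.08 ± 0.05 and Asap2 at 0.64 ± 0.15. The run of 3 was the only one of that length by the rule used, in either direction.

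Several further genes lay below all 7 strains. Dpy19l3, a mannosyltransferase, had 16.8, 32.5 and 71.1 over all AJ animals and 51.8, 214 and 1670 in the others, with 14 of 16 AJ below all of them (-2.81 ± 0.11). Scarf1, a scavenger receptor of endothelium, was at -1.90 ± 0.11, and the imprinted non-coding RNA Meg3 at -3.28 ± 0.24 with AJ at 0 to 7.45. Cxcl14, a chemokine, was at -2.89 ± 0.24, and its neighbour Slc25a48, a mitochondrial carrier picked out after its values were seen, at -1.20 ± 0.13. Rsph3b (-4.31 ± 0.19) and the urinary protein gene Mup13 (-4.05 ± 0.17) shared 52.8% and 83.6% of their 100-base windows with other genes in the annotation, so that their reads could be divided differently between copies.

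Above all 7 strains lay a neighbouring pair on chromosome 11. Rhbdf1, an inactive rhomboid that carries ADAM17 to the cell surface, had 113.1, 183 and 205 on chow and 92.6, 165.2 and 196 on high fat, against 17.4, 42.5 and 116.3 elsewhere. Snrnp25, a subunit of the minor spliceosome, had 51.5, 74.98 and 91.7 on chow and 55.3, 75.01 and 100.8 on high fat, against 2.92, 11.2 and 51.6. AJ was beyond all others in 13 of 16 animals for Rhbdf1 and in 15 of 16 for Snrnp25. The differences were 1.90 ± 0.09 and 2.48 ± 0.13, and the nearest strains were B6 and PWK at 1.29 and 1.07. Gbp4, an interferon-induced GTPase, had 75.7, 242 and 563 on chow and 124.1, 243 and 1018 on high fat, against 9.36, 33.0 and 156.7 (2.71 ± 0.21). Gbp11, near it with the gene model Gm43302 between them, was at 3.79 ± 0.26 but shared its high level with WSB, whose median was 177. High fat replicate 7103 held the top value of both, and without it they were at 2.57 and 3.61.

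Other genes above every strain were the receptor kinase Grk3 (1.77 ± 0.13), the heme synthesis enzyme Alad (1.09 ± 0.08), the endotoxin receptor Tlr4 (0.91 ± 0.13, adjusted p = 0.0146 for all 7 strains) and the antibody joining chain Jchain (2.15 ± 0.23). Jchain was at 500 in chow replicate 7579 and at 37.3 to 99.5 in the other AJ animals, and without that animal it was no longer above every strain (adjusted p = 0.0769). Ppia, a prolyl isomerase with many processed copies in the genome, was above all others in 16 of 16 animals (1.46 ± 0.10), and 13.4% of its windows were shared.

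The gene for albumin, the main protein of plasma, also stood apart. Alb, picked out after its values were seen, was at 567374, 794889 and 1017980 in AJ on chow and 546248, 733836 and 945606 on high fat, against 194583, 391476 and 785386 in the others. It took 9.20% of all normalised counts in AJ and 4.70% in the others. The groups overlapped, with 7 of 16 AJ animals above all others. The difference was 0.98 ± 0.11, and AJ exceeded the nearest strain, B6, by 0.62 ± 0.15 (adjusted p for all 7 strains = 0.00748).

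**Figure D2:**
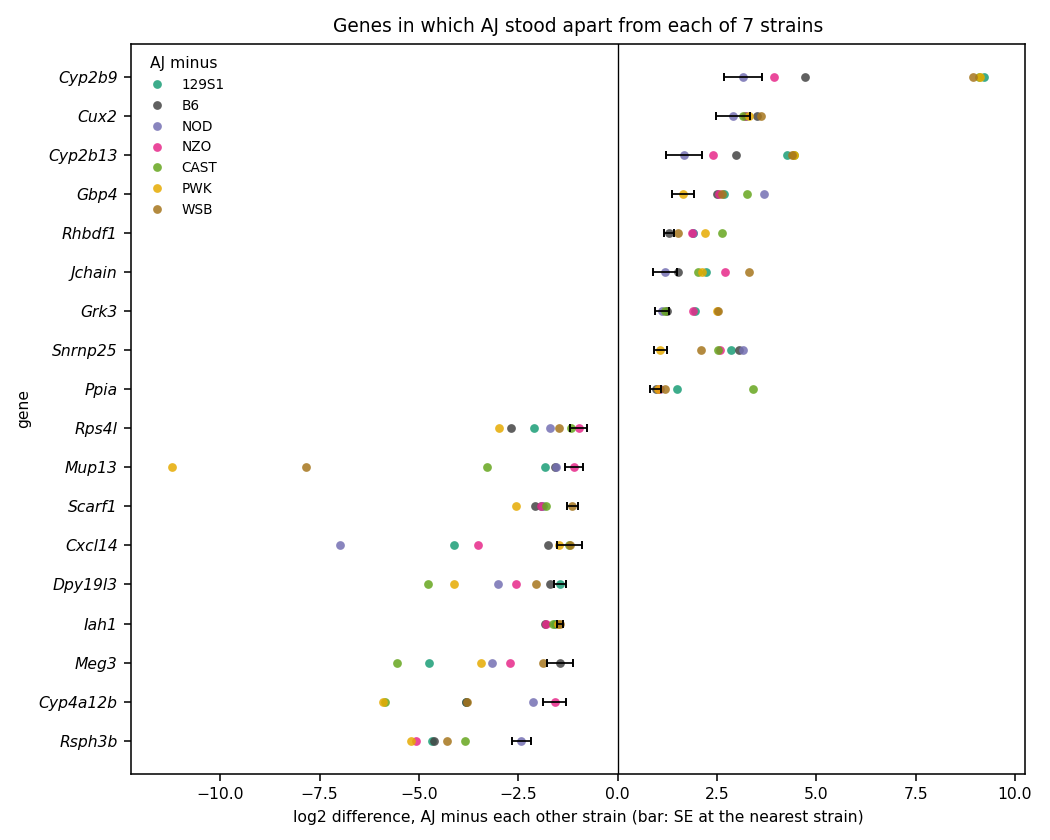
Named genes that lay above or below every other strain by the largest distances, in rows. Points give the log2 difference of AJ from each of the 7 strains over both diets, and the bar is the standard error at the nearest strain. All 7 points of a gene lie on the same side of 0, from Rsph3b at the bottom to Cyp2b9 at the top.

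Several of the widest differences from the mean of the 7 strains were shared with other strains and lay in genes that are on in some founders and off in others. Tpm3-rs7 (-5.19) was near 0 in AJ, 129S1 and B6 and high in the other 5 strains, and 49.8% of its windows were shared with Tpm3. Moxd1 (-4.80 ± 0.41) had strain medians of 7165 in CAST, 1746 in PWK and 719 in WSB against 3.24 in AJ. Ren1, the renin gene, had a median of 0 in AJ and 0.909 in B6, against 293 in 129S1 (-4.75 ± 0.29). Akr1c18, a steroid dehydrogenase, was at 0 to 1.79 in AJ and also near 0 in 129S1, B6, NOD and WSB, against medians of 299 in NZO and 762 in both CAST and PWK. In the other direction Eci3, a peroxisomal isomerase, had a median of 122.8 in AJ and 124.1 in CAST and of 9.84 or less in the rest (4.74 ± 0.21).

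Genes of the male liver pattern were lower in AJ, and some of the female pattern were higher. Of 22 male-biased genes tested, none was higher and 16 (72.7%) were lower, with a median difference of -1.20 against 0.01 over all genes. Of 23 female-biased genes tested, 13 were higher and 7 lower (56.5% and 30.4%), with a median of 0.54. Over all genes tested 24.0% were higher and 22.6% lower, so both female-biased shares lay above these. AJ had the lowest mean of the 8 strains for 7 of the male-biased genes and the highest for 0. For the female-biased genes it had the highest mean in 7 and the lowest in 2. Over all 13644 genes tested it had the highest mean in 1422 and the lowest in 1329. At the threshold against every strain, 1 male-biased gene was below and 4 female-biased genes were above. Against the 4 other classical strains alone, 20.4% of all genes tested were higher and 19.7% lower in AJ. In that comparison 2 male-biased genes were higher and 12 lower (median -0.64), while 11 of 20 female-biased genes were higher and 3 lower (median 0.87).

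Cyp2b9, a female-biased cytochrome P450, was the clearest of them. AJ males had 79.8, 625.4 and 3899 on chow and 290, 1054 and 2340 on high fat. NOD followed with 5.20, 91.6 and 319, NZO reached 1492 around a median of 67.4 and B6 reached 985 around a median of 61.7. No animal of 129S1, CAST, PWK or WSB was above 2.46. AJ overlapped NOD, NZO and B6 but lay above every strain mean, with a difference of 6.88 ± 0.36 from the 7 strains (adjusted p = 1.56e-35) and of 3.15 ± 0.48 from NOD (adjusted p for all 7 strains = 6.28e-07).

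Its paralog Cyp2b13, the next gene tested on chromosome 7, was at 2.23, 6.35 and 1215 on chow and 2.63, 39.1 and 301 on high fat, against at most 95.4 elsewhere. Chow replicate 7746 alone gave the 1215, and the other chow-fed AJ animals had 52.01 or less. The difference was 3.51 ± 0.34, and NOD was nearest at 1.68 ± 0.45 (adjusted p for all 7 strains = 0.0368). Of the 100-base windows of Cyp2b13, 9.29% were shared with other genes, most of all with the gene model Gm45225. For Cyp2b9 the share was 1.18%, most of all with Cyp2b13. The 250 bases before their annotated starts are printed because the pair moved together and the stretches match at 248 of 250 positions. They are RefSeq sequence of build GRCm38.p6, the plus strand, from C57BL/6J and not from A/J, and capitals mark the 2 positions that differ, at -203 and -147 from the start. Cyp2b9 is at chr7:26173159-26173408 and Cyp2b13 at chr7:26061245-26061494.
Cyp2b9: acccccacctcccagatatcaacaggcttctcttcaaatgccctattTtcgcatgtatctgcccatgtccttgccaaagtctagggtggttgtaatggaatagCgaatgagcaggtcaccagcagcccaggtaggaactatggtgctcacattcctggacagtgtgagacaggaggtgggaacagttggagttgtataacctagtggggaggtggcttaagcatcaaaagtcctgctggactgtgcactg
Cyp2b13: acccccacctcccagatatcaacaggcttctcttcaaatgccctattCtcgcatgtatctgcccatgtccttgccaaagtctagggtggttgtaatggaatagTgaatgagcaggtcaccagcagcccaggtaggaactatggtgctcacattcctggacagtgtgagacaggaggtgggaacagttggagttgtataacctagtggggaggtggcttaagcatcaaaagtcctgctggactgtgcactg

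Cux2, a homeodomain repressor found mainly in female liver where it lowers male-biased genes, is a regulator among the listed genes. AJ had 7.12, 79.3 and 291 on chow and 1.72, 19.8 and 97.5 on high fat, against 0, 2.90 and 29.7 in all others. It was above every strain (3.28 ± 0.32 from the 7 strains, 2.91 ± 0.43 from NOD), with 8 of 16 AJ animals above all others.

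Cyp3a44, a further female-biased P450, had 27.8, 81.4 and 522 on chow and 12.2, 65.7 and 217 on high fat. It was higher than the mean of the others (4.14 ± 0.31), and so was the organic anion carrier Slc22a26 (3.43 ± 0.29), but neither passed against every strain, with CAST and PWK nearest at 1.09 ± 0.41 and 1.09 ± 0.38. Cyp2a4, a steroid hydroxylase, was higher in AJ (3.22 ± 0.35), though PWK held more, with a median of 1332.

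Of the 7 female-biased genes that were lower, 2 were set by a single strain. Sult2a1 and Sult3a1, sulfotransferases picked out after their values were seen, were near 0 in AJ and in all other strains except PWK, with a median of 820 for Sult2a1, and CAST, with a median of 12078 for Sult3a1. Their differences of -1.54 ± 0.18 and -2.16 ± 0.27 therefore came from 1 strain each. Cyp2c40 (-2.16), Cyp2c69 (-1.95), Cyp3a41a (-2.58), Cyp3a16 (-0.65) and the neurotrophin receptor Ntrk2 (-1.94) were lower as well.

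Among male-biased genes Cyp4a12b, a fatty acid hydroxylase, was below every strain. It was at 6.20, 34.0 and 175.2 in AJ on chow and 16.0, 41.7 and 81.1 on high fat, against 15.9, 581 and 3371 elsewhere (-3.85 ± 0.22), with NZO nearest at -1.59 ± 0.29 (adjusted p for all 7 strains = 9.31e-05). It shared 36.2% of its windows with Cyp4a12a, which was at -0.87 ± 0.13. Selenbp2, a selenium-binding protein, had 148.3 to 894 in AJ and medians of 484 in 129S1 and 813 in B6, against 20316 in WSB (-3.84 ± 0.27). It shared 17.4% of its windows, most of all with Selenbp1. Mup20, the male pheromone protein darcin, had 408 to 2304 in AJ and a median of 40232 in B6 (-3.06 ± 0.23). Only Cyp4a12b of the male-biased genes passed against every strain, so Mup20 did not. Elovl3, a fatty acid elongase, was at -2.04 and complement C6 at -1.36 ± 0.10. Moxd1, described above with its high medians in CAST, PWK and WSB, is also among the lower male-biased genes. The 6 male-biased genes that did not pass were Hsd3b5, Susd4, Nudt7, Slco1a1, Slc22a7 and Egfr.

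Major urinary proteins, a family of secreted lipocalins that is largely male-biased, showed the same direction. Of 17 tested, 2 of them also among the male-biased genes, 3 were higher and 13 lower (17.6% and 76.5%, median -1.39). The shares over all genes were 24.0% and 22.6%. Against the 4 other classical strains 0 were higher and 11 of 16 lower. Mup18 gave the largest decrease of the named genes (-5.36 ± 0.15), with medians of 145.9 in AJ, 199 in NZO, 446 in 129S1 and 302032 in PWK. Family members are near copies of each other, and 87.1% of the windows of Mup18 were shared, so the values of single members are uncertain.

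**Figure D3:**
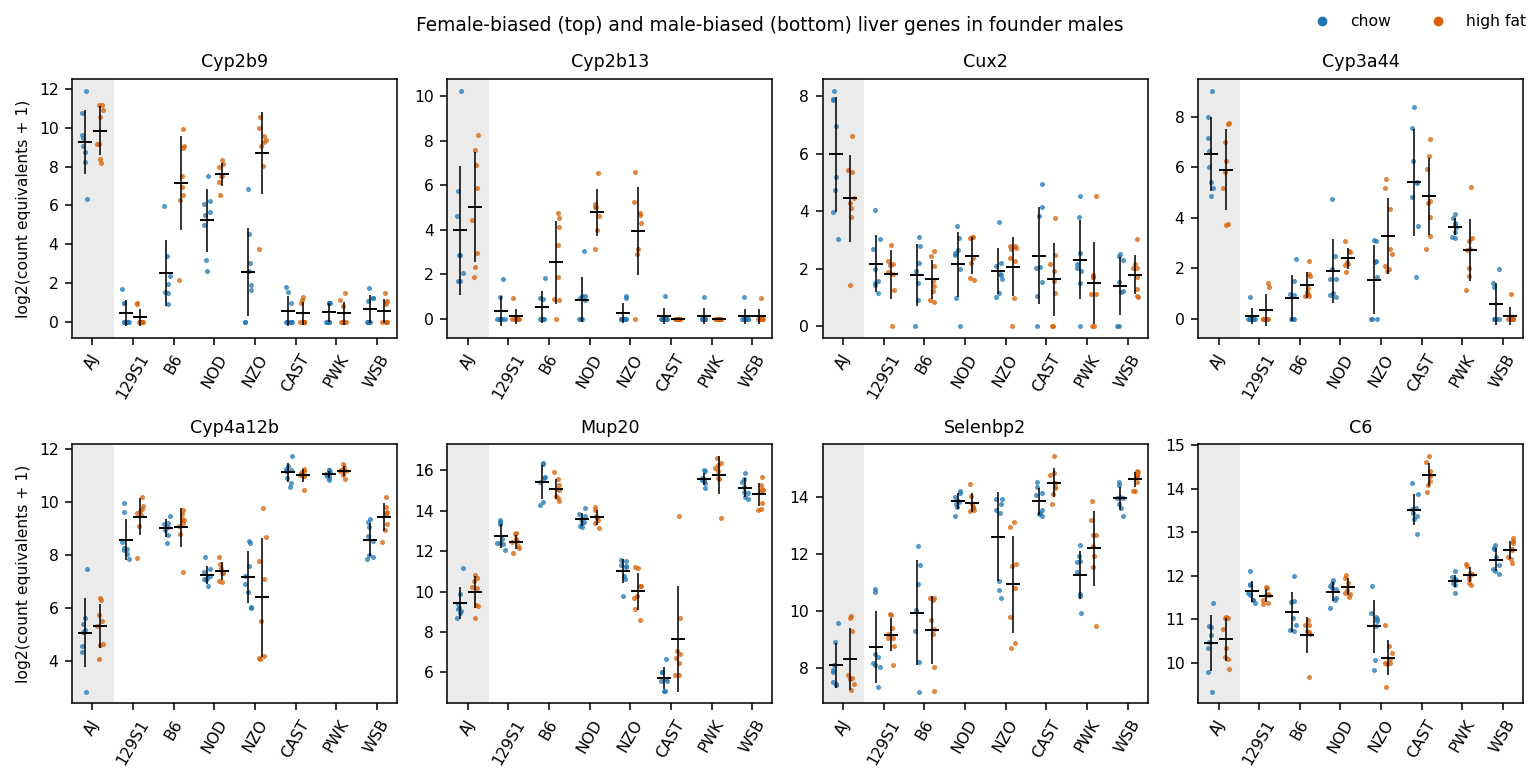
Female-biased genes (top row) and male-biased genes (bottom row), as log2(count equivalents + 1) on the y axis by strain on the x axis. Points are animals, coloured by diet, and bars give each group's mean and SD. AJ males have the highest mean for Cyp2b9, Cyp2b13, Cux2 and Cyp3a44 and the lowest for Cyp4a12b.

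The AJ males did not hold these genes at 1 level. Over the 16 animals, as deviations from the mean of their diet on the log2 scale, Cyp2b9 rose with Cyp3a44 (Pearson r = 0.912, Spearman rho = 0.929) and fell with Cyp4a12b (r = -0.918, rho = -0.862). For both, the permutation p of r and of rho was 1e-05, the smallest that the 100000 resamples can give, and 2e-05 for r and 3e-05 for rho after adjustment over the 6 relations computed. On chow alone r was 0.906 and -0.961, on high fat alone 0.954 and -0.838, and without the 2 animals farthest from the median of Cyp2b9 0.955 and -0.825. Cyp2b9 also rose with Cyp2b13 (r = 0.851, rho = 0.841, permutation p adjusted over the 6 relations = 2e-05 and 0.00014). It fell with Mup20 (r = -0.787, rho = -0.776, adjusted permutation p = 0.00046 and 0.00074), and without the same 2 animals these values of r were 0.866 and -0.740. With Cux2 r was 0.543 and rho 0.529 (adjusted permutation p = 0.03 and 0.036). That relation rested on those 2 animals (r = 0.383 without them) and was not seen on high fat alone (r = 0.193, against 0.743 on chow). Each lane held 2 AJ animals, too few for values within a lane.

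**Figure D4:**
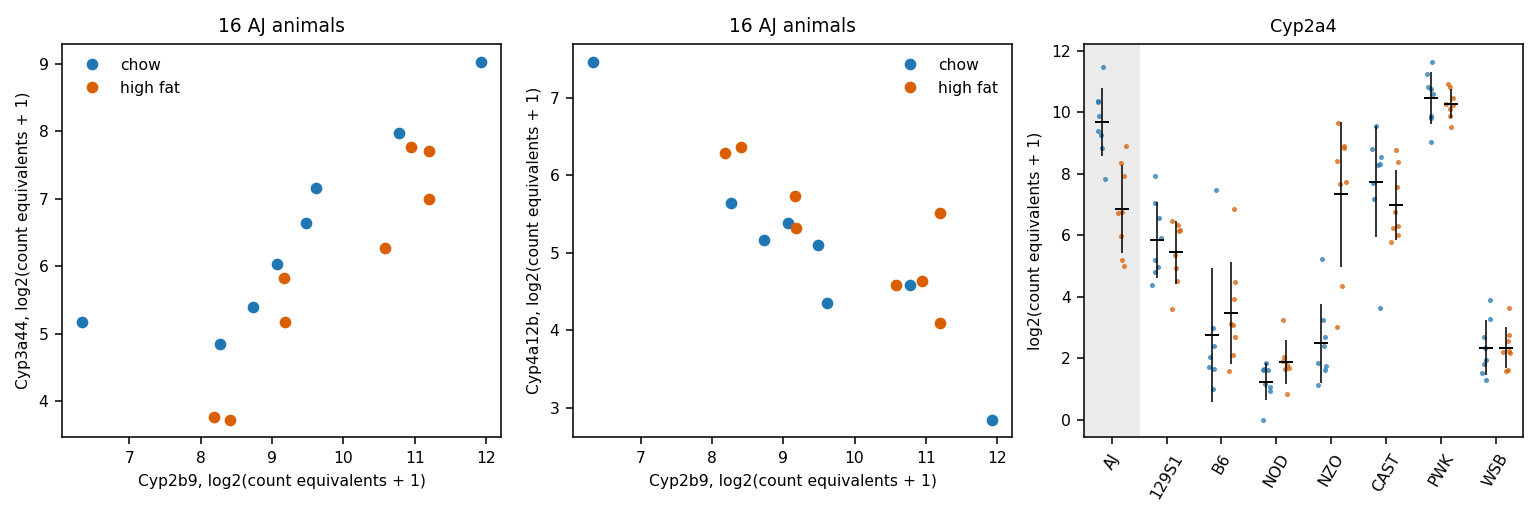
Left and centre, Cyp3a44 and Cyp4a12b against Cyp2b9 in the 16 AJ males, and right, Cyp2a4 by strain, all as log2(count equivalents + 1) with 1 point for each animal, coloured by diet. Bars give the mean and SD of a group. Among AJ males Cyp3a44 rises and Cyp4a12b falls along Cyp2b9, and Cyp2a4 is lower on high fat than on chow in AJ.

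STAT5 proteins, through which growth hormone acts, bind the palindrome TTCNNNGAA, which reads the same on both strands. In the 250 bases before the start it was present in 1 of the 14 male-biased and 3 of the 20 female-biased genes with a sequence in the RefSeq table, and in 7.02% of all 32851 promoters of that length. A match is a string of letters and no evidence of binding. The 2 sequences below belong to genes named above, with the match in capitals. Moxd1 is at chr10:24223267-24223516 on the plus strand and Slc22a26 at chr19:7802668-7802917 on the minus strand of GRCm38.p6, and the matches begin at -150 and -141.
Moxd1: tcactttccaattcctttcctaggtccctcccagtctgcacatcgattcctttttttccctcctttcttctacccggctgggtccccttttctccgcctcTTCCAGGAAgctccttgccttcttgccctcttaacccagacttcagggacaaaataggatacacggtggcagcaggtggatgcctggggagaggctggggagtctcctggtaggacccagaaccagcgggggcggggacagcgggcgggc
Slc22a26: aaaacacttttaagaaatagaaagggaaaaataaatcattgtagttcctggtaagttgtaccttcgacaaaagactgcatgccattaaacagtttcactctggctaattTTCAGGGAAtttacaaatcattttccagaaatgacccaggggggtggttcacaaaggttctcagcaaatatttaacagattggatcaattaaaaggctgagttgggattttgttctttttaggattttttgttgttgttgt

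Few differences of AJ changed detectably with diet. A test of whether it differed between chow and high fat gave 1 gene, Cyp2a4, of those tested (0.00733%), with 707 genes at an unadjusted p under 0.05. Cyp2a4 was at 226, 805 and 2852 in AJ on chow and 30.7, 106.5 and 482 on high fat. AJ exceeded the other strains by 4.98 on chow and by 1.47 on high fat, a change of -3.51 ± 0.70 (adjusted p = 0.0236). The call did not hold in 9 of 16 fits that each left out 1 AJ animal (adjusted p = 0.00636 to 0.177), nor without NZO (adjusted p = 0.228). Of its transcript windows, 11.2% were shared with Cyp2a5.

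Drug-metabolising enzymes, the sex-biased ones included, differed in both directions. Of 58 cytochromes P450 tested, 21 were higher and 21 lower, and of 65 conjugating enzymes 24 were higher and 26 lower. Over all genes tested 24.0% were higher and 22.6% lower, and the list counts here and below stand against these shares. Cyp2c23, an arachidonic acid epoxygenase, had a median of 177 in AJ, 154.3 in NZO and 85.8 in NOD, against 1768 to 3763 in the other 5 strains (-2.42 ± 0.10). The carboxylesterases, which hydrolyse drugs and lipid esters, had 9 of 18 higher and 4 lower. Ces1g was at 2.32 ± 0.19, with NZO higher than AJ. Ces2h was at -2.53 ± 0.19, near 0 in all 5 classical strains and at medians of 322 to 560 in the 3 wild-derived ones.

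In complement, 12 of 35 genes were higher and 10 lower (34.3% and 28.6%, against 24.0% and 22.6% of all genes). The lower ones included C6, C7 (-0.59 ± 0.14), C8b (-0.42 ± 0.11), C8g (-0.52 ± 0.06) and C9 (-1.06 ± 0.08) besides Hc, all of the terminal pathway, of which C8a at -0.09 ± 0.08 did not pass. The higher ones included C3 (0.42 ± 0.09), Cfb (0.43 ± 0.08) and C4a (1.39 ± 0.12). In coagulation 13 of 23 were higher and only F12 was lower. F12, the contact factor, had 1424 to 1890 in AJ, below every strain mean (-0.79 ± 0.04), and Serpinc1, the antithrombin gene, was at 0.28. Acute phase genes gave 4 higher and 3 lower of 26 (15.4% and 11.5%), both under the shares over all genes.

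Most macrophage markers, and a smaller share of the immune genes, were higher in AJ. Of 14 macrophage markers, 10 were higher and none lower (median 0.45), among them Timd4 (1.25 ± 0.16) and Lyz2 (0.91 ± 0.14), picked out after their values were seen. The summed level of the markers was 2253 to 7374 in AJ (median 3663) and 932 to 8040 in the others (median 2696). Against the 4 other classical strains, where 20.4% of all genes were higher, 4 of 13 markers were higher and none lower. None of the 14 passed against every strain. Interferon response genes gave 16 higher and 3 lower of 39 (median 0.28), with Gbp3 (1.47), Igtp (1.22 ± 0.16), Gbp7 (1.13) and Ifi202b (1.06) having the smallest p. Without high fat replicate 7103 they gave 12 and 4, and against the 4 other classical strains 11 and 4. Inflammasome and bacterial sensing genes gave 8 higher and 1 lower of 23, with the protease Casp1 at 0.86 ± 0.14 and the sensors Nlrp3 and Nlrp6 at 1.11 and 0.60. Without chow replicate 7579 the last list gave 5 and 2 of 21, a share of higher genes near the 23.5% of all genes in that fit, and against the other classical strains also 5 and 2. The part of the macrophage markers in these differences was not tested.

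Of 27 major histocompatibility and antigen processing genes, 15 were higher and 6 lower. The 4 with the smallest p were the non-classical class I genes H2-T10, which was higher (2.42), and H2-Q2 (-3.52), H2-T23 (-1.84) and H2-T22 (-1.40), which were lower. Other non-classical class I genes also went both ways, with H2-Q4 (1.13), H2-Q6 (0.75), H2-M3 (0.69) and H2-Q7 (0.31) higher and H2-Q1 (-2.47), H2-T24 (-0.92) and H2-Q10 (-0.54) lower. These genes are polymorphic and near copies of each other, and their reads may be divided differently between strains. Stellate cell and fibroblast markers gave 4 lower and none higher of 10, and bile duct markers 2 lower of 6. Red cell markers gave 3 higher of 6, and endothelial markers 2 higher and 2 lower of 10. The endothelial shares, 20% each way, were near the 24.0% and 22.6% of all genes. The summed levels overlapped between AJ and the others for each of these lists. Of the 10 hepatocyte markers 6 were higher and none lower, with a summed level of 875997 to 1366960 in AJ (median 1141420) and 373514 to 1127530 in the others (median 723463). Alb, whose levels are given above, made up a large part of the hepatocyte sum in AJ and in the others. Of 8 adipose markers 2 were tested and 1 was higher, Car3, a carbonic anhydrase, at 1.45 ± 0.19, picked out after its values were seen. The other, Cfd, was at -0.35 ± 0.22 and did not pass. The summed adipose level had a median of 20501 in AJ and 8419 in the others, and the median of 7 of the 8 markers was under 3 in both. That sum therefore rested on the remaining marker and is no measure of adipose tissue. The part of these markers in the other results was not tested.

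In lipid metabolism, 18 of 40 fatty acid oxidation genes were higher and 3 lower. Cyp4a14, a PPARA target, was at 3.37 ± 0.48, but 129S1, B6 and NZO reached similar levels. Cholesterol synthesis and uptake genes gave 9 higher and 1 lower of 25, with Hsd17b7 at 0.81, Scarb1 at 0.53 and Sc5d at 0.49. Without high fat replicate 7103 or 7609 there were 5 and 6 higher, and against the 4 other classical strains 4 higher and 2 lower. Fatty acid and triglyceride synthesis gave 8 higher and 3 lower of 29 (27.6% and 10.3%, against 24.0% and 22.6% of all genes). The desaturases Fads2 and Fads1 were at 0.77 and 0.56. Lipid droplet genes gave 3 higher and 7 lower of 20, with Fitm1 (-0.97) and Lipe (-0.63) lower and Pparg (0.88) higher. Against the other classical strains Pparg was at -0.24.

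Bile acid genes gave 9 higher and 6 lower of 28 (32.1% and 21.4%, against 24.0% and 22.6% of all genes). Abcc3, an exporter at the sinusoidal membrane, was at 2.01 ± 0.15, at a level that B6 and 129S1 shared, and Abcb11, the bile salt export pump, was at -0.76. Lipoprotein genes gave 15 higher and 5 lower of 33, and Apoc2, the activator of lipoprotein lipase, was below every strain at -0.89. Of its windows, 76.8% were shared with an overlapping gene model, as were 72.04% of those of Hsd3b7, a bile acid enzyme that was also below every strain at -0.86. The reads of both are therefore uncertain.

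Glucose genes gave 9 higher and 2 lower of 33 (27.3% and 6.1%, against 24.0% and 22.6% of all genes). The transporter Slc2a2 was at 0.62 and the insulin receptor Insr at 0.41. Amino acid and urea cycle genes gave 7 higher and 9 lower of 44. Ahcy, the adenosylhomocysteinase, was at 1.60 ± 0.09 and overlapped B6 and PWK, with 63.6% of its windows shared. Iron and heme genes gave 10 higher and 4 lower of 28, Alad and the ferrochelatase Fech (0.38) among the higher. Unfolded protein response genes gave 11 higher and 2 lower of 23, but 6 higher without high fat replicate 7163, 16 without chow replicate 7746 and 3 against the other classical strains. Asns, asparagine synthetase, was lower at -1.86.

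Circadian clock genes gave 11 higher and 3 lower of 22 (median 0.38), and the same counts against the 4 other classical strains. Per2 was at 1.00 ± 0.18, Per1 at 0.83 ± 0.16 and Ciart at 1.35 ± 0.29, all repressors of the clock, while the activators Arntl (-0.89 ± 0.29), Npas2 (-1.13 ± 0.36) and Clock (-0.25 ± 0.10) were lower. Per2 ranged from 240 to 633 in AJ and from 36.1 to 620 in the others. The labels do not state the hour of collection, and its part in these values was not tested.

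**Figure D5:**
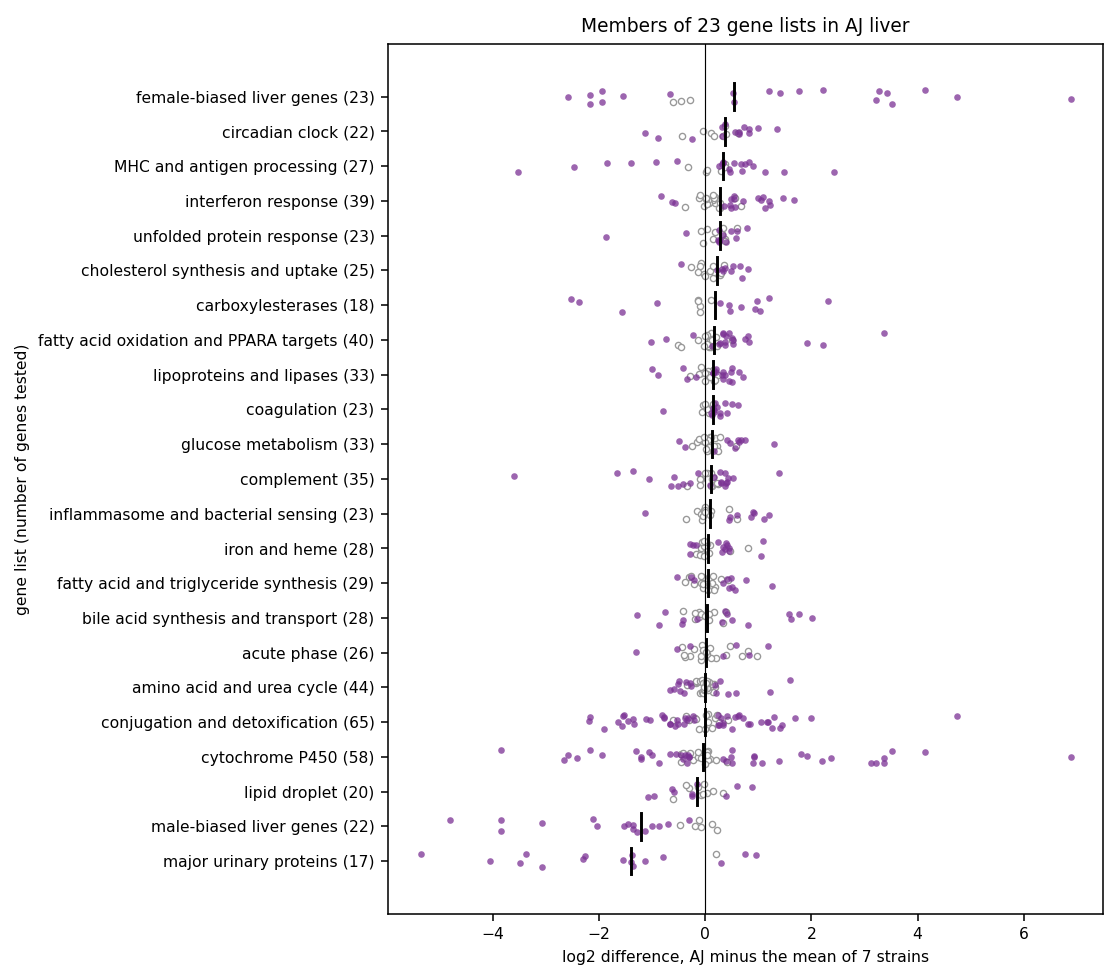
Log2 difference of AJ from the mean of the 7 other strains (x axis) for the tested members of 23 gene lists (rows). Filled points passed the threshold, open points did not, and the black line is the list's median. Male-biased genes (median -1.20) and major urinary proteins (median -1.39) lie to the left of the other lists.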

How the data were processed

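Liver RNA of 128 founder males was read from 1 deposited table of 24965 genes. Its values are a signal that the authors divided by each library's upper quartile, so that the 75th percentile of every library is 1; they are neither counts nor divided by gene length. CASAVA 1.8.0, Bowtie 0.12.8, RSEM 1.2.1 and build NCBIM37 (mm9) are named, per the submitters' processing notes; no annotation release is named there. Of values below 20.5 read steps, 82.6% (80.4% to 84.8% by library) lay within 0.1 of a whole number, too few for a count test.

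Every value was multiplied by 1 constant, 115.461, the mean upper quartile in reads. Genes with 10 or more such count equivalents in at least 7 animals were tested (13644) with limma 3.58.1 in R 4.3.3 on log2(value + 1), with 16 strain by diet groups and a mean-variance trend, after testing the scripts on simulated data. AJ was set against the mean of 7 strains, against each strain, and between diets. A gene passed against every strain when the largest of its 7 p-values, adjusted over all genes, was under 0.05 and all 7 differences had 1 sign.

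The members and gene lists were chosen with earlier results of these data known. Named genes have a symbol that is not a predicted one and a mean of 50 or more, and are the 10 largest increases and 10 largest decreases against the 7 strains, the 10 largest distances from the nearest strain on each side, the genes whose difference varied with diet, the 2 to 4 smallest p of each list, all documented alleles and runs of 3 neighbouring genes outside every strain. Windows shared between genes, 100 bases long, were counted in GENCODE M21 transcripts, which also gave symbols for 22760 genes and the gene order; as that is another build, no gene coordinates are given from it. Promoter sequences are RefSeq's for GRCm38.p6, found for 88 of the 133 genes with full values. Alternatives changed the pseudocount, filter, scaling, variance model, weights, libraries left out, reference strains and diets. A few genes that the rule names are not reported here.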

Additional observations from a re-analysis of the deposited data

Results flagged for a closer look

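In 266 groups of 8 AJ animals, each a gene with full values on 1 diet, 30 held an animal far from the other 7, and chance alone flags about 1 group in 20. Values are normalised read counts. Chow replicate 7579 gave 10 of them: it was high for Naip5 (36.3), Meg3 (6.37), Jchain (500), Grk3 (180), H2-T22 (224), Lyz2 (1670) and Sult2a1 (2.37), and low for Glo1 (4770), Serpinc1 (13700) and Acadvl (2440). High fat replicate 7103 gave 6: it was high for Gbp3 (824), Gbp4 (1020), Gbp7 (1660), Gbp9 (492) and Gbp11 (2340), a family of interferon-induced GTPases, and low for Dysf (0.963).

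Chow replicate 7746 was high for Cyp2b13 (1220) and Pygl (2670) and low for Saa4 (5310). Chow replicate 7118 was low for Scarf1 (3.5) and Mup5 (0). High fat replicate 7163 was high for Scarb1 (3050) and low for Hgfac (1260), and high fat replicate 9741 was high for Afmid (1760) and Sult2a1 (0.995). Single values stood out in chow replicate 7761 for Rps18-ps3 (2.23), in chow replicate 7133 for Orm3 (50.9, high), in high fat replicate 7609 for Orm3 (25.8, low), in chow replicate 7776 for Ahcy (18400) and in high fat replicate 9756 for Ugp2 (4120).

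Cyp2a4 was the gene for which the difference of AJ from the other strains changed with diet, by -3.51 on the log2 scale from chow to high fat.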

How the results depend on the processing

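Of the genes with full values, 24 changed their direction or their side of the threshold against the mean of the other strains under at least 1 setting. Calls against every strain and by diet are not part of this count, and Jchain and Cyp2a4 lost such calls as given above. When any 1 AJ animal was left out all kept both against that mean except Mx1, which lost its call without high fat replicate 7624 or chow replicate 7990. Against the 4 other classical strains Fbxl5 (-0.0033), Naip5 (-0.22) and Pparg (-0.24) changed sign, and 228 genes lay above and 279 below every strain, with 5 changing with diet. A test against a fold of 1.2 left 851 higher and 1190 lower genes, 15 above and 24 below every strain, 0 changing with diet, and 1386, 1657, 4627, 1986, 1598, 3906 and 2686 against 129S1, B6, CAST, NOD, NZO, PWK and WSB; 41.7% of its calls were higher, against 51.5%. Array quality weights gave 86 above every strain and 10 changing with diet, and leaving out NZO gave 0 of the latter. Chow alone gave 1850 higher and 1785 lower, 18 above and 23 below every strain, and 2432, 2099, 3293, 2508 and 4188 against 129S1, B6, NOD, NZO and WSB. High fat alone gave 20 above and 36 below every strain, 2552 against 129S1 and 3412 against NOD; either diet alone has fewer animals.

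Leaving out each AJ animal in turn gave 3099 to 3214 higher and 2870 to 3084 lower genes, 45 to 53 above and 66 to 87 below every strain, and 0 to 1 changing with diet. Against single strains the ranges were 4132 to 4512 for 129S1, 4472 to 4862 for B6, 8155 to 8257 for CAST, 5174 to 5306 for NOD, 4429 to 4693 for NZO, 7466 to 7681 for PWK and 6168 to 6420 for WSB. No scaling moved the median of all genes by as much as 0.1. Animals could not be paired by label, because the replicate labels are animal numbers that no 2 groups share. Each sequencing lane held 1 animal of every group, and with lane as a block all genes with full values kept their call against the mean. That fit gave 52 genes above and 81 below every strain. Genes near the filter rest on about 10 reads in a library.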
